A study of Mus musculus with 60 samples.

Results

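The comparison described here is that of primary mouse hepatocytes given interleukin 6 (IL-6) together with hepatocyte growth factor (HGF) with unstimulated cells of the same hour, 8 and 16 h after the stimulus. Its members were chosen by their labels: 2 arrays of the combination and 2 unstimulated arrays at each of the 2 hours, 8 of the 60 arrays of the series. All 8 arrays hold RNA of hepatocytes of male C57BL/6N mice of 8 to 12 weeks, with no genetic change named. All cells, the unstimulated ones included, attached to collagen I for 4 h and were kept for 24 h without serum, with 100 nM dexamethasone in the culture. The combination received 40 ng/ml recombinant human IL-6 and 40 ng/ml recombinant mouse HGF, and unstimulated cells received neither. The 4 arrays of HGF alone and the 4 of IL-6 alone at the same hours, each at 40 ng/ml, served to set the combination against its parts. A preparation came from a single mouse or a pool of up to 3 mice, and nothing in the labels ties the 2 arrays of a group to separate mice. The p-values therefore cover only how far these arrays differ from each other, which may be technical spread.

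IL-6 is the chief inducer of the acute phase response of the liver: it binds its receptor and gp130 (Il6st), and Janus kinases then activate STAT3, whose target Socs3 shuts the signal off again. HGF binds the receptor tyrosine kinase Met, which drives the MAP kinase and PI3 kinase routes and, in hepatocytes, growth, migration and entry into the cell cycle. Both factors rise in the regenerating liver, where hepatocytes respond to them at the same time while they keep, or give up, parts of their metabolic work.

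Values are log2 intensities of Affymetrix arrays, so that a difference of 1 is a doubling, and 14513 genes were bright enough to be tested. Differences are given for the mean of 8 and 16 h unless an hour is named, with their standard error (SE) and a p-value from limma adjusted over all 14513 genes by the Benjamini-Hochberg method. A gene was called when its adjusted p was under 0.05. Of the 106 called genes named here that have further probe sets, 62 had at least 1 that gave a difference smaller by more than 1.5 times or of the opposite sign (10 of opposite sign), so that sizes belong to the brightest probe set. The 2 arrays of a group correlated at 0.997 to 0.998 in the groups used here. The spiked hybridisation control bioB lay at 5.47 to 5.93 on the combination arrays and at 8.30 to 8.40 on the unstimulated ones, with HGF arrays at 6.06 to 6.32 and IL-6 arrays at 5.51 to 7.05. The other controls were closer: bioC lay at 9.91 to 9.98 with the combination and at 9.81 to 9.97 without stimulus, and cre at 13.47 to 13.57 and at 13.41 to 13.47. The control bioD lay at 11.99 to 12.06 with the combination and at 11.75 to 11.84 without stimulus, again without overlap. In this comparison bioB and bioD run with the stimulus, so that what goes with them cannot be told apart from it. HGF arrays also lay apart from the combination in bioB, bioC (9.70 to 9.80) and bioD (11.89 to 11.96), and the same limit applies there. IL-6 arrays lay apart from the combination in bioB at 8 h (7.05), with bioD at 11.95 to 12.20 over both hours. The part of these control differences in the results below was not tested.

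The summed intensity, in units of 1000, of the 9 measured hepatocyte markers, albumin and transthyretin among them, was 88.1 to 97.3 without stimulus and 90.6 to 102 with the combination. Of these 9, 6 fell (Cps1 by 0.89 and Hnf4a by 0.54 the most), 2 did not pass and 1, the IL-6 target Fgb, rose by 1.05 and adds to the sum. The 14 Kupffer cell and macrophage markers that passed the filter, of 16 listed, summed in the same units to 0.861 to 0.915 without stimulus and to 0.703 to 0.802 with the combination. Of these 14, 4 fell (Vsig4, Cd68, Lyz2 and C1qa) and 10 did not pass, beside 23.5% of all genes lower. The 11 endothelial markers summed to 0.924 to 0.970 and 0.869 to 0.956, with 1 fall (Oit3), and the 8 stellate cell markers to 0.415 to 0.443 and 0.408 to 0.431, with 1 rise (Reln) and 1 fall (Acta2), whose further probe sets gave -0.04 (Reln) and 0.33 and -0.03 (Acta2). The 8 bile duct markers summed to 1.54 to 2.24 without stimulus and 1.26 to 1.86 with the combination. Sox9 rose by 0.74 and Epcam by 0.36, Bicc1 fell by 0.62 and Tspan8 by 0.45, and 4 did not pass. The 5 lymphocyte and neutrophil markers summed to 0.226 to 0.243 and 0.216 to 0.268, with Ms4a1 0.38 higher, Cd79a 0.33 lower (-0.33) and 3, Cd3e at 0.06 among them, not passing. A further probe set of Ms4a1 gave -0.09. The endothelial markers Egfl7 (-0.15) and Kdr (-0.10) and the fibroblast collagen Col3a1 (0.27) did not pass either. The part of these other cells in the results was not tested. Fewer cells of a type and less RNA per cell cannot be told apart in such samples.

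With both stimuli 6685 of 14513 genes (46.1%) were called, 3280 higher and 3405 lower than in unstimulated cells. Most of these differences were small, since the median size over all genes was 0.14, and 325 genes (2.24%) were called with at least a 2-fold difference: 127 higher (0.875%) and 198 lower (1.36%). At 8 h 4856 genes (33.5%) were called and at 16 h 5964 (41.1%). Both combination arrays lay beyond both unstimulated arrays at each hour for 5763 genes (39.7%). The median difference over all genes was -0.005, so that the medians of gene groups below stand against a background close to 0. Counts of list members likewise stand against 22.6% of all genes higher and 23.5% lower. For counts against HGF alone these shares were 9.56% and 12.6%, and against IL-6 alone 12.3% and 10.5%. A list near these shares is not set apart by its count.

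**Figure D1:**
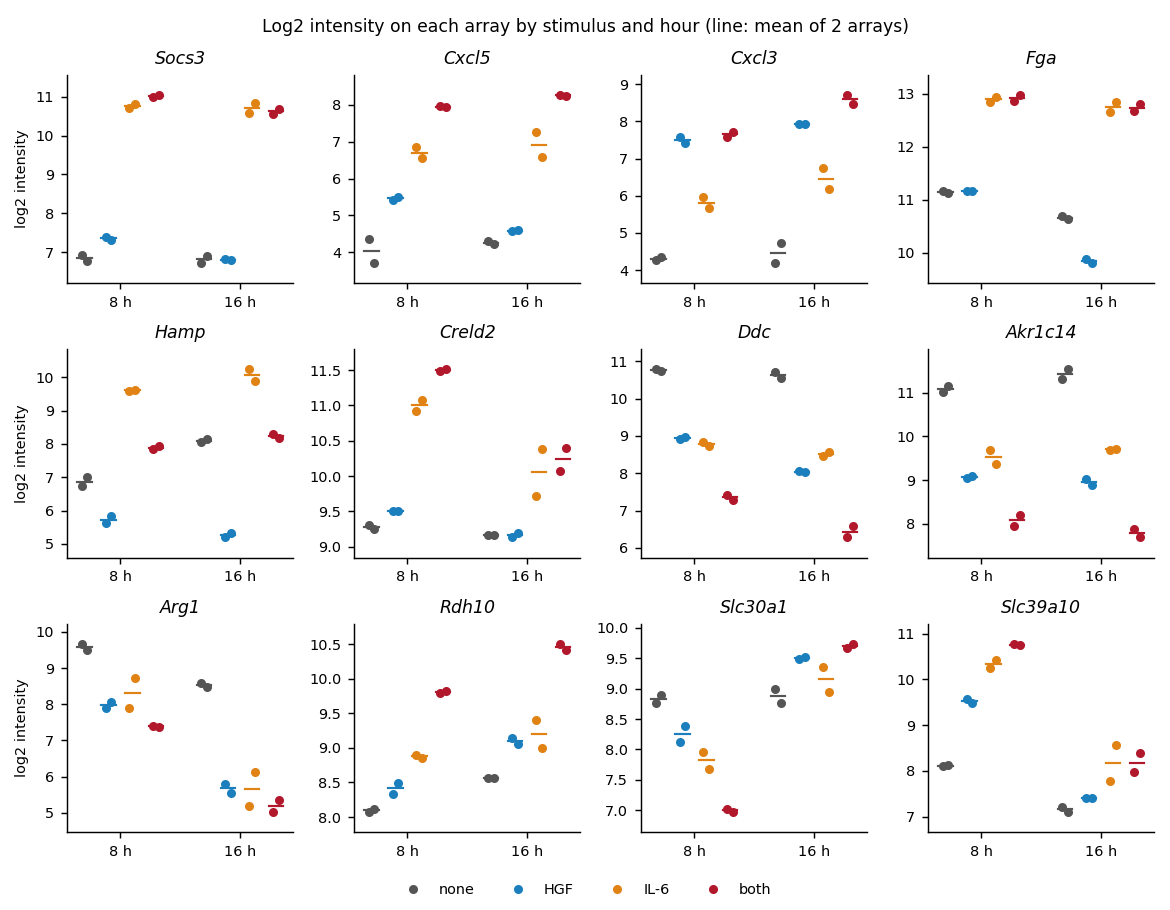
Log2 intensity (vertical axis) of 12 genes on each array at 8 and 16 h, for unstimulated cells (grey), HGF (blue), IL-6 (orange) and both (red); points are arrays and lines the mean of 2. Socs3 and Fga stand at the level of IL-6 alone, Cxcl5, Ddc, Akr1c14 and Rdh10 go beyond either stimulus alone, and Hamp lies between them.

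Genes of the IL-6 signal itself rose with the combination, with Socs3 in the lead. Socs3, the feedback inhibitor of gp130 signalling, lay at 11 and 11.05 at 8 h and at 10.55 and 10.69 at 16 h, against 6.93 and 6.77 and then 6.73 and 6.91 in unstimulated cells. The groups did not come near each other at either hour. Socs3 rose by 3.99 (SE 0.06, adjusted p = 3.82e-41), a 15.9-fold difference, and its other probe sets by 2.77 and 4.09. Cebpd, a C/EBP transcription factor of the acute phase, lay at 11.32 and 11.42 and then at 11.01 and 11.01, against 8.33 and 8.22 and then 8.62 and 8.63. It rose by 2.74 (SE 0.06, adjusted p = 9.95e-36), with 3.10 at 8 h and 2.38 at 16 h, and its further probe set gave 0.93.

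Of the 21 STAT3 targets and SOCS feedback genes measured, 17 rose, none fell and 4 (Socs1, Socs2, Batf and Pias1) did not pass, beside 22.6% of all genes higher and 23.5% lower. Their median difference was 0.75, and 9 rose at least 2-fold. Junb, an AP-1 subunit, rose by 1.55 (SE 0.05), the survival kinase Pim1 by 1.32 and its relative Pim3 by 1.06 (0.15 and 1.01 on further probe sets), the metalloreductase Steap4 by 1.2, the growth arrest gene Gadd45g by 1.16, the SOCS family member Cish by 1.09, the hepatokine Fgl1 by 1.04 and the NF-kappaB cofactor Bcl3 by 0.94, with Cebpb, a second C/EBP factor, at 0.75. The list stood above HGF alone for 15 members and below it for 1, beside 9.56% and 12.6% of all genes (22.2% in either direction). Against IL-6 alone 6 members were higher and 4 lower, beside 12.3% and 10.5% of all genes (22.8% in either direction). Socs3 differed from IL-6 alone by 0.09 (SE 0.06, adjusted p = 0.363) and Cebpd by -0.03 (SE 0.06, adjusted p = 0.83). Gadd45g is the member that lay furthest below IL-6 alone: it read 7.26, 7.31, 7.09 and 7.33 with both stimuli and 7.98, 8.18, 7.81 and 7.95 with IL-6 alone, a difference of -0.73 (SE 0.09, adjusted p = 4.25e-08).

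The receptors and transducers moved less. Osmr, the oncostatin M receptor that pairs with gp130, rose by 1.62 (SE 0.05, adjusted p = 4.78e-28), from 8.44 to 8.60 on the unstimulated arrays to 9.99 to 10.32 with both stimuli. Its 2 other probe sets gave 0.83 and 0.32. Stat3 rose by 0.52 (SE 0.05), with 0.17, 0.58 and -0.01 on its other probe sets, so that its size rests on the probe set read. The IL-6 receptor Il6ra rose by 0.24 (SE 0.05, adjusted p = 0.00033, 0.04 on a further probe set) and gp130, Il6st, by 0.20 (SE 0.03, adjusted p = 1.89e-06), with -0.01, 0.32 and 0.10 on further probe sets. The IL-22 receptor chain Il22ra1 fell by 0.72, and the growth hormone transducers Stat5b (-0.06 on a further probe set) and Stat5a fell by 0.42 and 0.41. In all, 7 of the 12 receptor, kinase and STAT genes measured rose and 5 fell.

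STAT proteins bind palindromes of the form TTCNNNGAA. In the RefSeq promoter windows used here (250 bases before to 50 after a gene's start, GRCm38.p6, both strands searched), these letters stood in 5 of the 16 STAT3 list members with a window (31.2%) and in 5 of the 22 positive acute phase proteins with one (22.7%), beside 973 of the 11639 tested genes with a window (8.36%). The stretches below belong to genes described here as strong risers, are written 5′ to 3′ on the gene's strand and show each match in capitals. They were picked from genes with a match, and strong risers without a match or a window, such as Fgg and Junb, are not shown. In Fga and Ccdc71l they begin at the edge of the window, and no match overlapped an AP-1 (TGANTCA), C/EBP (TTNCGNAA) or ER stress element match.
Socs3, chr11:117969482-117969550, minus strand, match at -154 from the start: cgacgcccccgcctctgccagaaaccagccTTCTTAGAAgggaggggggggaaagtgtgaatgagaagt
Fga, chr3:83025903-83025957, plus strand, match at -234 from the start: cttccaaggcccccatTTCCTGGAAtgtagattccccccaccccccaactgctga
Fgb, chr3:83049987-83050055, minus strand, match at -162 from the start: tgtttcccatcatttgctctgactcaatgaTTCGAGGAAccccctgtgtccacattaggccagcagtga
Tgm1, chr14:55713518-55713695, minus strand, matches at -173 and -64 from the start: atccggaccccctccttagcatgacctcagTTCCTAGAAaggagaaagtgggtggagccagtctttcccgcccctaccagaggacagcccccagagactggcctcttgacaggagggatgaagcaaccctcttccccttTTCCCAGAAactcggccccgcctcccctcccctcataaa
Ccdc71l, chr12:32378539-32378606, plus strand, match at -221 from the start: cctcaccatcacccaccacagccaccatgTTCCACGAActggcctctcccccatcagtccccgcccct
A match is a run of letters and not a measured binding site. The AP-1 letters were present in 8 of the 22 acute phase windows (36.4%), beside 6.87% of the windows of tested genes.

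Positive acute phase proteins, the plasma proteins that the liver makes more of in inflammation, split with the combination. Among the 29 on the array, 15 rose and 8 fell while 6 missed the threshold, with a median of 0.15. The 3 fibrinogen chains, which form the clot, rose most. Fga lay at 12.86 and 12.98 at 8 h and at 12.67 and 12.80 at 16 h, against 11.16 and 11.13 and then 10.69 and 10.63. It rose by 1.93 (SE 0.06, adjusted p = 9.76e-31), Fgg by 1.33 (SE 0.04) and Fgb by 1.05 (SE 0.05). All 4 combination arrays lay above all 4 unstimulated arrays for each chain. Cd14, the endotoxin co-receptor, rose by 0.90, Lrg1 by 0.81, the protease inhibitor Serpina3n by 0.74, and the metallothioneins Mt2 and Mt1 by 0.45 and 0.39. The members that fell were Crp (0.62), Orm2 (0.33), the endotoxin carrier Lbp (0.32), Saa2 (0.31), Saa4 (0.30), Orm3 (0.28), Itih3 (0.20) and Saa1 (0.12), where each number is the size of the fall. Saa1 and Saa2, and the Orm genes, are close copies, and the signal read for any of them may come in part from its relatives.

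Set against the single stimuli, the same proteins lay above HGF alone and below IL-6 alone. Of the 29, 21 were higher and 3 lower than with HGF alone (9.56% and 12.6% of all genes), with a median of 0.42. Against IL-6 alone 1 was higher and 21 were lower (12.3% and 10.5% of all genes), with a median of -0.20. The higher one was Il1rn, and 7 did not pass: Fga, which differed from IL-6 alone by 0.01 (SE 0.06), Fgb by 0.00 (SE 0.05), Fgg by -0.08 (SE 0.04), Saa1 by -0.05, Cp by -0.03, Mt1 by -0.02 and Mt2 by -0.01. Fgb read 14.21 to 14.25 on all 8 arrays with IL-6, near the highest value of any tested gene on these arrays (14.29 to 14.38), so that a further difference may not be measurable there. Hamp, which encodes the iron hormone hepcidin, shows the split most clearly. It lay at 7.84, 7.93, 8.30 and 8.18 with both stimuli, at 9.60, 9.63, 10.24 and 9.90 with IL-6 alone, at 5.62, 5.83, 5.19 and 5.33 with HGF alone and at 6.74, 7.0, 8.05 and 8.14 without stimulus. No array of the combination overlapped either single stimulus. The combination stood 2.57 above HGF alone (SE 0.11, adjusted p = 1.71e-23) and 1.78 below IL-6 alone (-1.78, SE 0.11, adjusted p = 5.42e-17). Against unstimulated cells Hamp rose by 0.58 (SE 0.11, adjusted p = 2.38e-05), with 1.02 at 8 h and 0.15 at 16 h. Hamp and Hamp2 share sequence and may share signal.

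**Figure D2:**
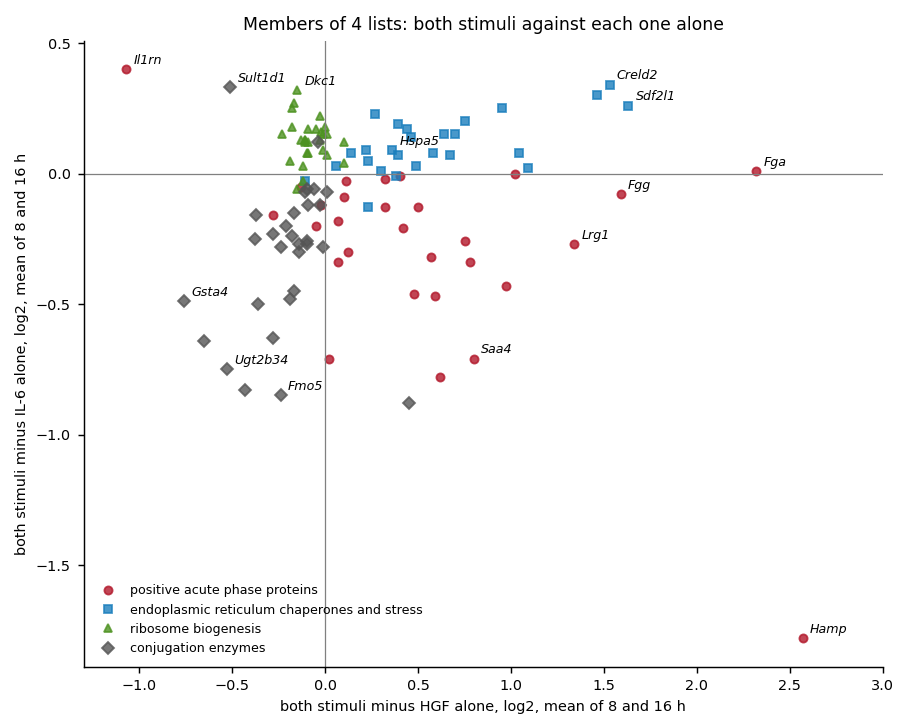
Each point is a gene of 1 of 4 lists: the horizontal axis gives its log2 difference of the combination from HGF alone, the vertical axis that from IL-6 alone (mean of 8 and 16 h, both from the same combination arrays). Most acute phase proteins lie right of and below 0 (21 of 29 were called higher than HGF alone and 21 lower than IL-6 alone), with Hamp at 2.57 and -1.78, and 23 of 26 chaperones were called right of 0.

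The list named for carrier proteins that the liver makes less of in inflammation was mixed: among 13 on the array, 3 rose and 7 fell while 3 missed the threshold, with a median of -0.12 and no 2-fold difference. Without array 2 of unstimulated cells at 16 h, array 2 of the combination at 16 h or array 2 of the combination at 8 h, the number of falls was 4 each time. Albumin (Alb) fell by 0.05 and transthyretin (Ttr) by 0.12, while the thyroxine carrier Serpina7 rose by 0.64 (SE 0.06). The largest fall was that of Serpina12 (0.77, SE 0.06, adjusted p = 3.1e-15, given as its size), with -0.10 on its further probe set. Insulin-like growth factor Igf1 rose by 0.40 (SE 0.05).

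Chemokines, the secreted attractants of white blood cells, moved both ways: among 19 on the array, 6 rose and 7 fell while 6 missed the threshold. Cxcl5 lay at 7.97, 7.94, 8.28 and 8.25 with both stimuli, against 4.36, 3.71, 4.29 and 4.21. It rose by 3.97 (SE 0.17, adjusted p = 3.13e-24), a 15.7-fold difference. Cxcl3 rose by 3.74 (SE 0.17, adjusted p = 4.19e-23), from 4.20 to 4.73 on the unstimulated arrays to 7.59, 7.72, 8.72 and 8.48. Without stimulus Cxcl5 and Cxcl3 lay below the array medians of 4.88 to 4.97, so that the sizes of both rises are uncertain. Cxcl2 rose by 1.36, Cxcl1 by 1.08, Cxcl12 by 0.89 and Cxcl9 by 0.44. Ccl9 fell by 0.84, the interferon-induced Cxcl10 by 0.48 (SE 0.11, adjusted p = 0.000163), Ccl27a by 0.38, Ccl2 by 0.37, Ccl20 by 0.33, Ccl7 by 0.30 and Cxcl16 by 0.17. Cxcl12 rests on 1 probe set, since its others gave 0.03 and 0.14. Cxcl5 stood 3.09 above HGF alone and 1.3 above IL-6 alone (adjusted p = 1.35e-19 and 7.3e-08), whereas Cxcl3 stood 1.98 above IL-6 alone (adjusted p = 1.34e-12) and differed from HGF alone by 0.41 (SE 0.17, adjusted p = 0.0891).

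On the HGF side, Met itself fell by 0.23 (SE 0.04, adjusted p = 1.03e-06) and stood 0.34 below HGF alone (-0.34, adjusted p = 5.86e-10). Of 15 genes of the receptor, its adaptors and HGF activation, 4 rose (the ubiquitin ligase Cbl by 0.56, the urokinase receptor Plaur by 0.35, the adaptor Grb2 by 0.29 and Mst1r by 0.23) and 5 fell, the surface protease Hpn by 0.54. Beside these counts, 22.6% of all genes were higher and 23.5% lower. A further probe set of Grb2 gave 0.08. Immediate early genes, the transcription factors and regulators that growth factors switch on within minutes, were mostly higher than in unstimulated cells at these hours. Of 22 measured, 17 rose, none fell and 5 did not pass, with a median of 0.48, beside medians of 0.22 with HGF alone and 0.29 with IL-6 alone over the same unstimulated arrays. Of the 22, 10 were above HGF alone and 2 below it, and 10 above IL-6 alone and none below it. Over all genes 9.56% were above HGF alone and 12.6% below it, and 12.3% above IL-6 alone and 10.5% below it. Klf4 rose by 1.95, Junb by 1.55, Egr1 by 1.45, Ier3 by 1.42, Ier5 by 1.07, Fosl2 by 0.99 (0.22 on a further probe set) and Myc by 0.59. Egr1 lay at 11.02, 11.04, 11.16 and 11.40 with both stimuli and at 9.62 to 9.86 without, with no overlap. Klf4 rose more at 16 h (2.45) than at 8 h (1.45).

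Feedback regulators of MAP kinases and EGF-family ligands rose in 12 of 21 cases, fell in 2 and did not pass in 7, with a median of 0.27. Dusp5, a nuclear ERK phosphatase, rose by 1.41 (SE 0.08), the EGF receptor Egfr by 1.13 (SE 0.05, 0.88 and 1.00 on 2 further probe sets and between -0.11 and 0.18 on the remaining 4), Spry2 by 0.86 (0.13 on a further probe set) and Phlda1 by 0.62. The EGF-family ligands Hbegf and Btc rose by 0.60 and 0.59. The list stood above IL-6 alone for 12 members and below it for none, and above HGF alone for 2 and below it for 6. Fosl1, an AP-1 subunit, lay between the single stimuli: it read 8.26, 8.21, 8.41 and 8.41 with both, 9.05 to 9.14 with HGF alone and 7.15 to 7.79 with IL-6 alone. Its difference from HGF alone was -0.77 (SE 0.06, adjusted p = 4.06e-14) and that from IL-6 alone 0.90 (SE 0.06, adjusted p = 8.78e-16). The ERK phosphatase Dusp4 did the same, at -0.81 and 0.56. Its mean difference from unstimulated cells was -0.01 (SE 0.09, adjusted p = 0.924), but the hours were opposite. Dusp4 was called lower at 8 h (-0.43) and higher at 16 h (0.41).

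**Figure D3:**
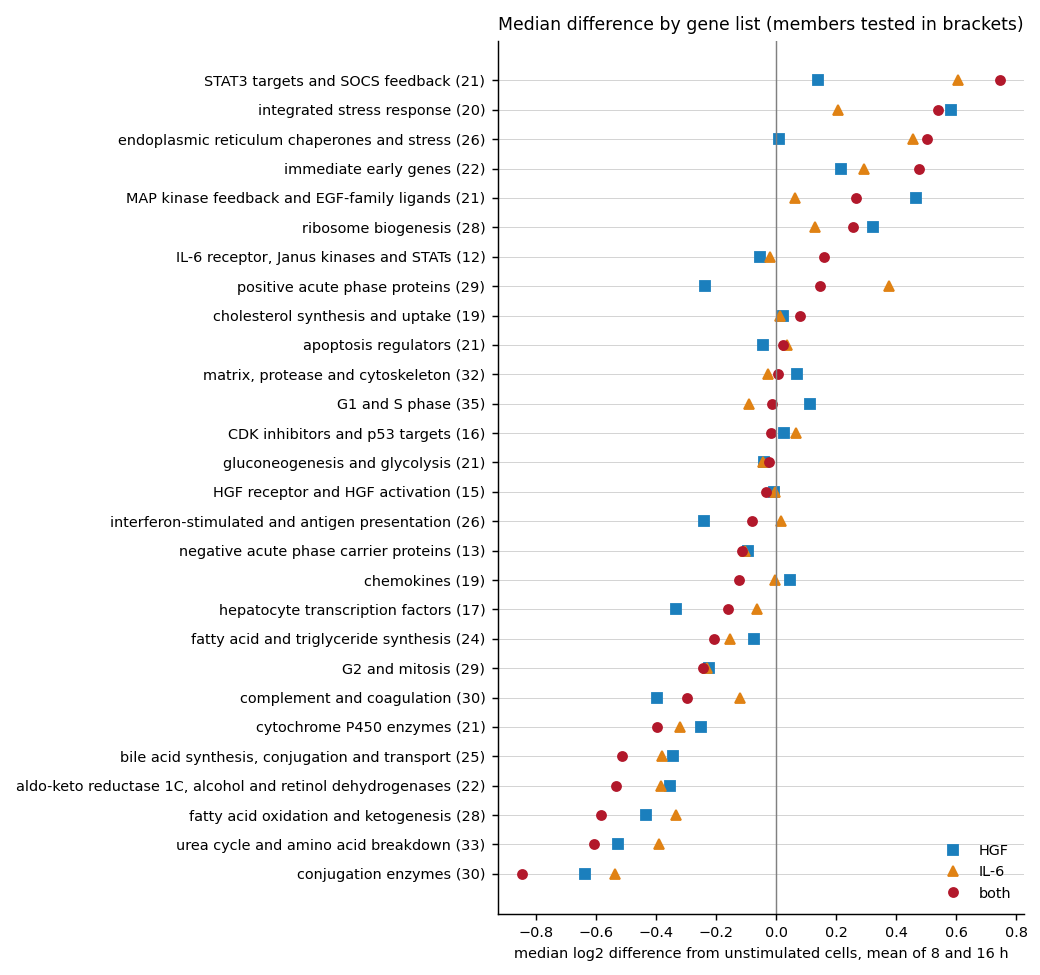
Median log2 difference from unstimulated cells (horizontal axis, mean of 8 and 16 h) for each of 28 gene lists with HGF (blue squares), IL-6 (orange triangles) and both (red circles); the 3 conditions share the same unstimulated arrays. With both stimuli the medians run from -0.85 for conjugation enzymes to 0.75 for STAT3 targets.

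Chaperones and folding enzymes of the endoplasmic reticulum (ER) rose almost throughout. Of 26 measured, 24 rose, none fell and 2 (Atf6 and Derl2) did not pass, with a median of 0.50 and 5 rises of at least 2-fold. Creld2, a disulphide isomerase, lay at 11.49 and 11.51 at 8 h and at 10.07 and 10.40 at 16 h, against 9.30 and 9.25 and then 9.16 and 9.17. It rose by 1.65 (SE 0.07, adjusted p = 5.1e-25). The cochaperone Sdf2l1 rose by 1.53 (SE 0.07), the isomerase Pdia4 by 1.25 (0.17 on a further probe set), the chaperone Hyou1 by 1.06 (0.57 and 0.33), the ubiquitin ligase Syvn1 by 0.68, the secreted factor Manf by 1.01 and Hsp90b1, an HSP90 of the ER, by 0.89. Hspa5, the master chaperone BiP, lay at 13.98, 14.01, 13.60 and 13.60 against 13.16, 13.10, 13.01 and 13.03 and rose by 0.72 (SE 0.03, adjusted p = 5.5e-27). The median of the list was 0.70 at 8 h and 0.46 at 16 h. Against HGF alone 23 of the 26 were higher and none lower, with a median of 0.45, while the medians over unstimulated cells were 0.01 with HGF and 0.46 with IL-6. Against IL-6 alone 12 were higher and none lower, with a median of 0.09. That last count rests on single IL-6 arrays: it was 7 without IL-6 array 1 at 16 h, 8 without IL-6 array 1 at 8 h and 17 without IL-6 array 2 at 16 h.

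The ER stress element, CCAAT followed after 9 bases by CCACG, is the motif through which ATF6 and the general factor NF-Y act on such genes. Its letters stood in 9 of the 21 list members with a promoter window (42.9%), beside 19 of the 11639 tested genes with a window (0.163%), and the STAT letters in none of the 21. The windows of 2 of the 3 members with the smallest adjusted p are shown 5′ to 3′ on the gene's strand with the match in capitals. In Creld2 the match reads on the opposite strand, and no other searched motif overlapped either.
Creld2, chr15:88819490-88819568, plus strand, match at -126 from the start: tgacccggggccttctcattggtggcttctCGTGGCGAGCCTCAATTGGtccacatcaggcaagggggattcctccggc
Hspa5, chr2:34771995-34772073, plus strand, match at -65 from the start: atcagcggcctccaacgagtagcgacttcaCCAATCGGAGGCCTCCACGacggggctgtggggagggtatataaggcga

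Genes of the integrated stress response, which adapts translation and amino acid supply under ATF4, rose as well. Of 20 measured, 18 rose, none fell and 2 did not pass, with a median of 0.54, and the single stimuli had medians of 0.58 (HGF) and 0.21 (IL-6). Ddit3, the CHOP factor, rose by 1.14 (SE 0.09, 0.31 on a further probe set), its target Trib3 by 1.06, Asns, which makes asparagine, by 0.62, Psat1, of serine synthesis, by 0.61 and the asparaginyl-tRNA synthetase Nars by 0.38. Against IL-6 alone 15 members were higher and none lower. Ribosome biogenesis genes rose in 25 of 28 cases, with none lower and 3 that did not pass. Their differences were small, with a median of 0.26 and no 2-fold change. Dkc1, a pseudouridine synthase subunit, rose by 0.52, Utp4 by 0.33 and nucleolin (Ncl) by 0.27. They stood below HGF alone for 12 of 28 members and above it for none, and above IL-6 alone for 19 and below it for none.

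Cell cycle genes did not rise as a group. Of 35 genes of G1 and S phase, 10 rose, 8 fell and 17 did not pass, with a median of -0.01. These counts are close to the shares of all genes, 22.6% higher and 23.5% lower. The number of falls was 5 without array 2 of unstimulated cells at 16 h and without array 2 of the combination at 8 h. Thymidine kinase (Tk1) lay at 5.49, 5.13, 5.53 and 5.69 with both stimuli, against 6.30, 6.23, 7.0 and 6.84, and fell by 1.14 (SE 0.08, adjusted p = 3.89e-16). The primase Prim1 fell by 0.42 and the clamp loader Rfc4 by 0.37. Cyclin D1 (Ccnd1), the G1 cyclin, rose by 0.20 (SE 0.08, adjusted p = 0.0364), a call that did not hold in 7 of the 8 fits that each left out 1 array (adjusted p of 0.0567 to 0.155 in those), and stood 0.39 below HGF alone (-0.39, adjusted p = 0.000129). Against HGF alone 16 of the 35 were lower and none higher, and 9 were lower without array 1 of the combination at 16 h and 10 without array 1 of the combination at 8 h. Of 29 genes of G2 and mitosis, none rose, 13 fell and 16 did not pass, with a median of -0.24. Cyclin B2 (Ccnb2) fell by 0.74, Nusap1, which bundles spindle microtubules, by 0.71 and the checkpoint kinase Ttk by 0.66, where further probe sets gave -0.17 for Nusap1 and -0.09 for Ttk. Among 16 CDK inhibitors and p53 targets 6 rose, Gadd45a (0.88) and Btg1 (0.58) the most, and 4 fell, among them Cdkn2b (0.36) and Ccng1 (0.26), given as sizes. The shares of all genes were 22.6% higher and 23.5% lower. Further probe sets of Ccng1 gave -0.03 and -0.11. Cyclin D2 (Ccnd2) differed by -0.01.

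The largest falls were in enzymes of amino acid, steroid and alcohol metabolism. Ddc, which makes dopamine and serotonin from their amino acid precursors, lay at 7.42 and 7.29 at 8 h and at 6.28 and 6.58 at 16 h, against 10.78 and 10.73 and then 10.72 and 10.55. It fell by 3.80 (SE 0.06, adjusted p = 9.33e-41), a 13.9-fold difference, although a further probe set gave -0.17. Chdh, which turns choline into betaine aldehyde, fell by 3.11 (SE 0.07), from 8.27 to 8.93 to 5.18 to 5.66. Arginase (Arg1), the last step of the urea cycle, fell by 2.76 (SE 0.14, adjusted p = 3.6e-21), by 2.19 at 8 h and by 3.33 at 16 h. Tdo2, which opens the tryptophan ring, fell by 2.44 (SE 0.10) and Kynu, further down that path, by 1.66. Of 33 genes of the urea cycle and amino acid breakdown, 5 rose, 26 fell and 2 did not pass, with a median of -0.61 and 10 falls of at least 2-fold. The risers were Cth (0.78), Oat (0.35), Got1 (0.30), Glul (0.18) and Nags (0.17).

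Aldo-keto reductases of the 1C family, which reduce steroids, fell as a block. Akr1c14 lay at 7.96, 8.20, 7.88 and 7.69 with both stimuli and at 11.02, 11.14, 11.30 and 11.53 without. It fell by 3.32 (SE 0.09, adjusted p = 7.38e-32), Akr1c19 by 3.29 (SE 0.07, adjusted p = 6.2e-36), Akr1c20 by 2.75 (SE 0.08) and Akr1c6 by 1.51. The 7 measured members all passed, with differences of -0.37 (Akr1c18) to -3.32 (Akr1c14). These genes are close copies of each other. The alcohol dehydrogenase Adh1 fell by 2.40 (SE 0.08), from 12.05 to 12.59 to 9.29 to 10.49, and the carbonyl reductase Cbr3 by 2.23 (SE 0.11). Of the 22 aldo-keto reductases and alcohol, aldehyde and retinol dehydrogenases measured, 3 rose, 18 fell and 1 did not pass. The exception in size was Rdh10, which oxidises retinol on the way to retinoic acid: it lay at 9.79, 9.82, 10.50 and 10.42 against 8.07, 8.12, 8.56 and 8.57 and rose by 1.80 (SE 0.05, adjusted p = 6.26e-30).

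Conjugation enzymes, which make drugs and metabolites soluble, fell in 28 of 30 cases, with none higher. Their median difference was -0.85, the lowest of the 34 lists, and 13 fell at least 2-fold beside 1.36% of all genes. The median was -0.55 at 8 h and -1.2 at 16 h. The flavin monooxygenases Fmo5 and Fmo1, which oxidise rather than conjugate, fell by 2.18 (SE 0.08) and 1.92, the glutathione transferases Gsta2 and Gsta3 by 1.59 and 1.58, and the glucuronosyltransferases Ugt2b34 and Ugt2b36 by 1.32 and 1.08. Against IL-6 alone 23 of the 30 were lower and 1, Sult1d1, higher. Against HGF alone 18 were lower and 1, Sult1a1, higher, and 11 were lower without array 2 of HGF at 8 h and 12 without array 1 of HGF at 16 h. Cytochrome P450 enzymes fell in 18 of 21 cases with a median of -0.40, Cyp2b10 by 1.13, Cyp3a11 by 0.76 and Cyp2d9 by 0.67. Only Cyp3a13 rose, by 0.10, and Cyp4f15 and Cyp1b1 did not pass. The nuclear receptors that control such genes fell too: Nr1i2, the xenobiotic sensor PXR, by 1.50 (SE 0.11) and Nr1h4, the bile acid sensor FXR, by 1.38 (SE 0.07). Hnf4a fell by 0.54 and Onecut1 by 0.44, and Onecut2 rose by 1.03. Of 17 hepatocyte transcription factors 2 rose, 10 fell and 5 did not pass.

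Genes of bile acid synthesis, conjugation and transport fell in 18 of 25 cases, with 1 rise and a median of -0.51. Baat, which joins bile acids to taurine, fell by 1.92 (SE 0.11), and Cyp7b1 by 1.26 (-1.07 and -0.03 on further probe sets). The phospholipid pump Abcb4 fell by 1.56 (SE 0.06) and Acox2 by 1.08. Cyp7a1, the rate-limiting enzyme, differed by 0.01 and the bile salt pump Abcb11 by 0.16, and neither passed. The riser was Fgfr4 (0.41). Fatty acid oxidation and ketogenesis fell in 26 of 28 cases, with a median of -0.58. Bdh1, which makes hydroxybutyrate, fell by 1.95, the bifunctional enzyme Ehhadh by 1.24, Hadh by 0.91 and the mitochondrial gatekeeper Cpt1a by 0.90. Angptl4, a secreted inhibitor of lipoprotein lipase, rose by 1.35 (SE 0.05) and Pdk4 by 0.16. Fatty acid and triglyceride synthesis gave 5 rises, 14 falls and 5 that did not pass, with a median of -0.21. Its regulators Lpin1, Mlxipl and Lpin2 fell by 0.68, 0.50 and 0.48, while fatty acid synthase (Fasn) rose by 0.41.

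Of 21 genes of gluconeogenesis and glycolysis 7 rose, 8 fell and 6 did not pass, with a median of -0.02. Slc2a2, the glucose transporter of the hepatocyte surface, lay at 8.43 and 8.49 and then at 7.02 and 7.21, against 10.44 and 10.18 and then 9.72 and 9.73, and fell by 2.23 (SE 0.06, adjusted p = 7.38e-32). Pck1, which commits carbon to gluconeogenesis, fell by 2.08 (SE 0.19), with -0.22 and 0.09 on its other probe sets. The transporter of glucose 6-phosphate Slc37a4 fell by 1.19, Fbp1 by 1.03 and the coactivator Ppargc1a by 1.00. The pyruvate kinase Pkm rose by 1.03, the widespread glucose transporter Slc2a1 by 0.84, and the phosphofructokinase genes Pfkp and Pfkfb3 by 0.62 and 0.58.  The 19 genes of cholesterol synthesis and uptake differed between the hours. At 8 h 9 were higher and 2 lower, with a median of 0.19, and at 16 h 3 were higher and 5 lower, with a median of -0.07. Over all genes 33.5% were called at 8 h and 41.1% at 16 h. For the mean of both hours 7 of the 19 rose, 4 fell and 8 did not pass. Srebf2 (0.52, with -0.17 on its further probe set) and Msmo1 (0.51, with 0.23) rose most, and Dhcr7 fell by 0.55. The 7 rises were 3 to 8 in fits without 1 array (3 without array 2 of unstimulated cells at 8 h, array 2 of unstimulated cells at 16 h or array 2 of the combination at 16 h, and 4 without array 1 of the combination at 8 h) and 2 with the mean over probe sets.

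Complement and coagulation factors fell in 25 of 30 cases, with 4 rises and a median of -0.30. The lectin pathway protease Masp1 fell by 1.46 (SE 0.06), although its 4 other probe sets gave -0.19 to -0.42, the lectin Mbl1 by 0.98 and the factor XIII subunit F13b by 0.87. Serpind1, heparin cofactor II, rose by 0.68 and Serpinf2, the plasmin inhibitor, by 0.50. Here the combination lay above HGF alone for 10 members and below it for 3, and below IL-6 alone for 16 and above it for 3. Interferon-stimulated and antigen presentation genes gave 4 rises, 11 falls and 11 that did not pass, with a median of -0.08. The single stimuli had medians of -0.239 (HGF) and 0.015 (IL-6) over unstimulated cells. Against HGF alone 11 were higher and 3 lower, with a median of 0.12. Against IL-6 alone none was higher and 8 were lower, and 4 were lower without array 1 of the combination at 16 h or array 1 of IL-6 at 8 h, and 5 without array 2 of the combination at 8 h or array 1 of IL-6 at 16 h. Ifit1 fell by 0.96, Usp18 by 0.77 and Ddx58 by 0.39, and the GTPase Iigp1 rose by 0.33. The immunoproteasome subunit Psmb9 differed by -0.13 and did not pass. Among 21 apoptosis regulators 9 rose and 7 fell: the death receptor Fas fell by 0.79, while the proapoptotic Bcl2l11 rose by 0.71 and the caspase inhibitor Cflar by 0.40. Of 32 matrix, protease and cytoskeleton genes 12 rose, 6 fell and 14 did not pass. Timp1, the metalloproteinase inhibitor, lay at 9.10, 9.09, 9.84 and 9.80 against 6.71, 7.02, 7.19 and 7.15 and rose by 2.44 (SE 0.07). The hyaluronan receptor Cd44 rose by 0.94 (0.92, 0.89 and -0.07 on further probe sets), the laminin receptor chain Itga6 by 0.80 and Itga3 by 0.32.

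Several of the 12 largest rises belong to none of these lists. Nat8f2, an N-acetyltransferase, rose by 2.85 (SE 0.11) and Arrdc4, an arrestin-like protein that responds to glucose supply, by 2.85 (SE 0.09, 1.06 on a further probe set). Tgm1, which crosslinks proteins of the cornified envelope in skin, rose by 2.51 (SE 0.07) and Ccdc71l by 2.46 (SE 0.06), the latter from 7.71 to 8.06 to 10.20 to 10.45. Bmper, a secreted regulator of BMP signals, rose by 2.39 (SE 0.06), Havcr1, the kidney injury molecule, by 2.26 (SE 0.10, 1.06 on a further probe set), and Ppp1r42 by 2.15 (SE 0.15), the last with 0.06 and 0.50 on its other probe sets. For all of them both combination arrays lay above both unstimulated arrays at each hour, as the choice of these genes required. Havcr1 read 4.38 to 4.8 without stimulus, below the array medians of 4.88 to 4.97, so that the size of its rise is uncertain. The fatty acid activating enzyme Acsm5 (2.28, SE 0.11) and Dpys, of pyrimidine breakdown (2.31, SE 0.10), completed the 12 largest falls, where each number is the size of the fall. Acsm5 read 3.43 to 4.44 with the combination, below the array medians, so that the size of its fall is uncertain. Dpys read 4.84 and 4.89 with the combination at 16 h, near the array medians, and its further probe sets gave -2.34 and -0.49.

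Some genes went beyond either stimulus alone. In all 380 genes (2.62%) were called higher with the combination than in unstimulated cells, with HGF alone and with IL-6 alone, and 459 (3.16%) were called lower than in all 3. A further 576 genes (3.97%) lay between the single stimuli, called against both in opposite directions. The highest by the smaller of their differences from the single stimuli were Cxcl5, Rdh10, Spred3, Lmcd1, Havcr1, Glrx, P2ry14 and Irx3. Rdh10 stood 1.37 above HGF alone (SE 0.05, adjusted p = 5.71e-25) and 1.09 above IL-6 alone (SE 0.05, adjusted p = 3.8e-20). HGF alone read 8.34 to 9.14 and IL-6 alone 8.86 to 9.40, below each combination array of the same hour. Spred3, an inhibitor of RAS and MAP kinase signals, stood 1.42 and 1.03 above them, the LIM domain gene Lmcd1 1.00 and 1.49, Havcr1 1.94 and 0.91, the glutaredoxin Glrx 0.87 and 0.84, the nucleotide receptor P2ry14 0.86 and 0.99, and the homeobox gene Irx3 0.77 and 1.25. In each pair the value against HGF alone comes first.

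The lowest by the same measure were Ddc, Akr1c14, Akr1c19, Adh1, Gprin3, Cbr3, Akr1c20 and Chdh. All but Gprin3, which fell by 1.63 (a further probe set gave -0.26), were also among the 12 largest falls. Ddc read 8.92, 8.96, 8.05 and 8.02 with HGF alone and 8.83, 8.72, 8.47 and 8.56 with IL-6 alone, above the combination at both hours. The combination differed by -1.60 from HGF alone (SE 0.06, adjusted p = 2.22e-25) and by -1.75 from IL-6 alone (SE 0.06, adjusted p = 6.26e-26). Akr1c14 differed by -1.09 and -1.69, Akr1c19 by -1.11 and -1.06, Adh1 by -0.97 and -0.97, Gprin3 by -1.06 and -0.75, Cbr3 by -0.67 and -1.07, Akr1c20 by -0.82 and -0.65 and Chdh by -0.65 and -1.31. With a minimum of 2-fold, 66 genes were higher and 11 lower than with HGF alone (0.455% and 0.0758%), and 18 were higher and 15 lower than with IL-6 alone (0.124% and 0.103%).

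Among genes called at both 8 and 16 h the direction was mostly kept. Of these, 1566 were higher at both (10.8%), 1836 lower at both (12.7%) and 110 opposite (0.758%). A further 1344 genes (9.26%) were called at 8 h only and 2452 (16.9%) at 16 h only. A change of the difference by at least 1 between the hours was called for 80 genes (0.551%), 25 with a higher value at 16 h (0.172%) and 55 with a lower one (0.379%). At an adjusted p under 0.05 with no minimum size the balance was the other way: 2125 genes (14.6%), 1461 with a higher value at 16 h (10.1%) and 664 with a lower one (4.58%). Of the 80, Akr1c19 changed most, by -2.73. The largest change upward was that of Slc30a1, the zinc exporter of the cell surface. It lay at 7.03 and 6.97 at 8 h, below 8.77 and 8.89 without stimulus, and at 9.66 and 9.73 at 16 h, above 8.99 and 8.76. The difference was -1.83 at 8 h and 0.82 at 16 h, a change of 2.65 (SE 0.14, adjusted p = 2.05e-19), and its other probe set gave -1.31 and 0.62. The difference of Nat8f2 grew from 1.95 to 3.75, and both sides moved. Nat8f2 read 8.41 and 8.63 and then 7.46 and 7.4 without stimulus, and 10.39 and 10.57 and then 11.22 and 11.14 with both stimuli. The difference of the matrix protein Fbln2 went from 0.51 to 2.01 and that of the growth factor chain Pdgfb from 0.31 to 1.68. The other probe sets of Fbln2 (0.05 and 0.19) and Pdgfb (0.34 and 0.01) showed no such step. Mei4 went from 0.29 to 1.69 and Glod5 from 0.23 to 1.62, both at low intensity.

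Among the 6 largest changes toward a lower value at 16 h, Akr1c19 went from -1.92 to -4.65, Akr1c20 from -1.49 to -4.02, Dpys from -1.42 to -3.20, Acnat2, which conjugates fatty acids to taurine, from -0.45 to -2.24, and Slc10a2, a bile acid transporter, from -0.44 to -2.27. Marcks, a membrane substrate of protein kinase C, began above unstimulated cells, with 1.51 at 8 h and -0.26 at 16 h. Marcks read 7.49 and 7.06 and then 8.59 and 8.77 without stimulus, and 8.8 and 8.77 and then 8.56 and 8.26 with both stimuli. Its 6 other probe sets gave 0.20 to 1.83 at 8 h and -0.24 to 0.03 at 16 h. In the ER list the difference of Herpud1, of ER-associated degradation, turned from 0.93 to -0.63 (change -1.56, SE 0.10, adjusted p = 1.31e-16), and that of Creld2 shrank from 2.22 to 1.07.

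**Figure D4:**
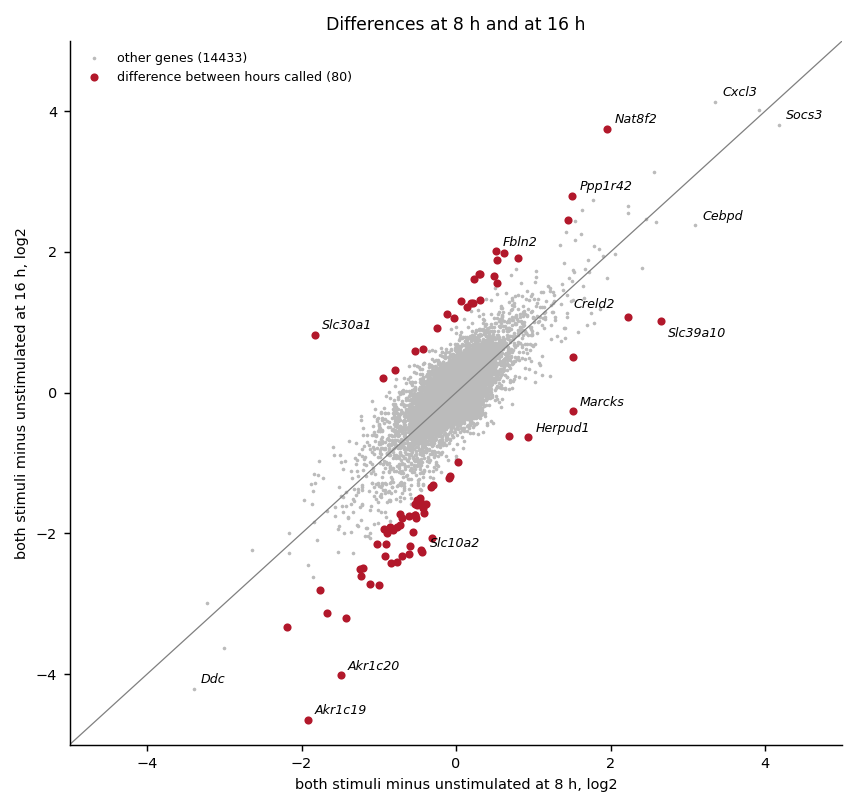
Log2 difference of the combination from unstimulated cells at 8 h (horizontal axis) and at 16 h (vertical axis) for 14513 genes; red points are the 80 genes whose differences were called as unlike by at least 1, and the line marks equal differences. Slc30a1 lies at -1.83 and 0.82, Marcks at 1.51 and -0.26, and Akr1c19 at -1.92 and -4.65.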

How the data were processed

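Hepatocyte RNA was labelled with biotin (1.5 µg input) and hybridised to Affymetrix Mouse430_2 arrays, per the labels' protocols. The authors deposited 1 table of log2 intensities (45101 probe sets, 60 arrays). Its summarisation and scaling are not stated in the labels. Array medians ran from 4.88 to 4.97, and values were used as deposited. Precision is limited by the number of arrays. The labels' text speaks of triplicates, and 2 arrays per group are used here (4 at 0 h).

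The platform annotation gave 34958 probe sets 1 gene symbol, 932 several and 9211 none, and only the 1st kind was used. Each of 18194 genes was read from its brightest probe set and kept where 2 or more arrays placed it above their 40th percentile. limma 3.58.1 (R 4.3.3) was fitted with 1 mean per group on all 60 arrays, eBayes with trend and 31 residual degrees of freedom. Contrasts were averaged over 8 and 16 h or taken at each hour. Members, 34 gene lists (775 genes, 698 tested, 52 without a probe set of their name, 25 too dim) and the naming rules were chosen with earlier results of these data known. Named were the 12 largest rises and falls whose arrays did not overlap, the 3 members of each list with the smallest adjusted p, Socs3, Il6ra, Il6st, Met and Cxcl10, the 6 largest changes between the hours and the 8 genes furthest beyond both single stimuli in each direction. Further list members are named where their list is described, and a few genes, named as such, were chosen after their values were seen. Sequences are from RefSeq's table of 32851 promoter windows (GRCm38.p6, 27025 genes), matched by symbol. The pipeline was tested on simulated data. Same-numbered arrays had residual correlations of -0.01 to 0.21 over the 6 pairs of groups compared, so that replicate numbers were not taken as pairs. Quantile normalization, other filters, variance models, probe set rules, a replicate block, a fold minimum and leaving out each array were tried.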

Additional observations from a re-analysis of the deposited data

Results flagged for a closer look

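For 27 of the genes named here, the difference between the combination and unstimulated cells was not the same at 8 and 16 h by a test of that change itself (limma, adjusted over 14513 genes, with a size of at least 1). Each value is the log2 difference at 16 h minus that at 8 h, so that a gene lower than in unstimulated cells at both hours has a negative value where the fall deepened.

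Falls deepened for enzymes of metabolism: Akr1c19 changed by -2.73, Akr1c20 by -2.52, Dpys by -1.78, Gsta2 by -1.64, Fmo1 by -1.61, the betaine user Bhmt by -1.59, Adh1 by -1.46, Baat by -1.38, Arg1 by -1.14, Gsta3 by -1.12 and Acsm5 by -1.05. Slc10a2 (-1.83) and Acnat2 (-1.78) were called lower at 16 h and were not called at 8 h. Among genes that were higher at 8 h, Marcks changed by -1.78, the zinc importer Slc39a10 by -1.63, Herpud1 by -1.56, Creld2 by -1.15 and Manf by -1.01. Rises grew for Nat8f2 (1.80), Fbln2 (1.49), Pdgfb (1.37), Ppp1r42 (1.3), Cxcl2 (1.12) and Klf4 (1.00). Mei4 (1.39) and Glod5 (1.39) were called higher at 16 h and were not called at 8 h. Slc30a1 changed by 2.65, from below unstimulated cells to above them.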

How the results depend on the processing

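Leaving out each array in turn gave 6157 to 6348 called genes for the mean of both hours (6685 with all arrays), 3804 to 4013 at 8 h (4856), 5064 to 5151 at 16 h (5964), 70 to 96 for the change between the hours (80), 2630 to 2974 against HGF alone (3215) and 2736 to 3033 against IL-6 alone (3313). Requiring a difference beyond 1.5-fold within the test left 545, 355, 598, 125 and 40 genes for the mean, 8 h, 16 h, HGF alone and IL-6 alone, and was not run for the change between the hours. The other settings gave 6044 to 6787, 4254 to 4993, 5054 to 5999, 62 to 80, 2775 to 3275 and 2404 to 3421 genes in the same order of comparisons. With the replicate block the counts were 6687, 4871, 5996, 80, 3249 and 3354, and the residual correlations of same-numbered arrays were -0.01 to 0.21. Of the 193 named genes 185 were called. Outside the 1.5-fold test, 8 of these lost the call under at least 1 setting (Acta2, Ccnd1, Cd79a, Herpud1, Ms4a1, Oit3, Reln and Vsig4), and 73 lost it in that test. Acta2 turned to 0.04 (adjusted p = 0.654 by limma) with the mean over probe sets. With 2 arrays per group, differences of low-intensity genes are the least certain.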

Other observations

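Among zinc transporters, chosen after their values were seen, the importer Slc39a14 rose by 1.72 (SE 0.06, adjusted p = 2.87e-27 by limma; 0.53 to 1.13 on further probe sets) and Slc39a10 by 1.83 (SE 0.10, adjusted p = 1.04e-20). Slc39a14 differed by 1.67 at 8 h, 1.64 at 24 h and 1.31 at 32 h. The exporter Slc30a1 differed from unstimulated cells by -1.42 at 4 h, 0.56 at 24 h and 0.74 at 32 h, so that its later values lay on the side of that at 16 h.

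Among genes tied to hepcidin and iron, also chosen after their values were seen, the BMP coreceptor Hjv fell by 1.68 (SE 0.09), the ligand Bmp6 by 0.61 and the iron exporter Slc40a1 by 0.55. Id1 and Smad7, targets of BMP signals, rose by 0.33 and 0.62. Hjv differed by -1.73 with HGF alone and by -0.61 with IL-6 alone, both against the same unstimulated arrays. Hamp itself stood 0.55 above unstimulated cells at 24 h and 1.13 at 32 h.

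Genes known from the cornified layer of skin were a further group noticed in the values. Besides Tgm1 and Klf4, Crct1 rose by 2.11 (SE 0.06), Serpinb2 by 1.92 (SE 0.17) and involucrin (Ivl) by 1.29 (SE 0.19, 0.27 on a further probe set). They did not follow 1 stimulus: with HGF alone Tgm1 differed by 0.27, Crct1 by 2.02 and Ivl by 1.80, and with IL-6 alone by 2.24, 0.87 and 0.52. The IL-6 arrays of Ivl at 16 h read 5.57 and 7.5, far apart for a pair of 1 group. Serpinb2 read 2.24 to 3.28 without stimulus, below the array medians of 4.88 to 4.97, so that the size of its rise is uncertain.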
